A study of Caenorhabditis elegans with 18 samples.

Results

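Transcripts of 6 glutathione S-transferase genes that the transcription factor SKN-1 is known to control, *gst-4*, *gst-5*, *gst-7*, *gst-10*, *gst-12* and *gst-30*, were followed in Caenorhabditis elegans exposed to 5 small molecules. They are 6 of 17118 genes that have a probe set of their own on the array, and each has 1 such probe set, chosen by its annotated gene symbol. The animals were N2 (wild-type) worms grown for 56 h at 22°C to young adults and moved to S Basal liquid with E. coli OP50 as food, at 6000 worms per well. They received LK32, LK34, LK35, LK38 or LK56 at 100 μM, or the DMSO solvent, for 8 h. RNA of whole animals was read on 18 Affymetrix arrays, 3 for each of the 6 groups, which carry the letters A, B and C. Every group was wild type, the labels name no pathogen, and no array had SKN-1 reduced or activated by a mutation, so these data do not measure whether a change depended on SKN-1. The genes were taken up because their changes against DMSO were already known, and those changes are therefore given as a description. Calls against DMSO mark where a value lay in a fit over all probe sets, and are no test of the 6 genes.

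Glutathione S-transferases join glutathione to electrophilic compounds and to products of lipid oxidation, which makes these more soluble and easier to export. SKN-1, the worm counterpart of mammalian Nrf2, induces many of these enzymes in the intestine and other tissues when animals meet oxidants or electrophiles. In unstressed animals WDR-23 presents SKN-1 for degradation, and the p38 kinase PMK-1 promotes its entry into intestinal nuclei. A *gst-4* reporter is the most widely used readout of this response, and recombinant GST-10 of the worm is known to conjugate 4-hydroxynonenal, an aldehyde formed when lipids are oxidized.

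Values are GCRMA intensities on a linear scale. The lowest value in the table, 4.61, is a floor at which 46.3% to 49.4% of each array lies. An intensity near it is not above background. Where all 3 arrays of a group sit there, a fold against that group is a lower bound. Levels were not compared between probe sets, which differ in brightness for equal amounts of RNA. Arrays correlated with others of their own group at a mean r of 0.9537 to 0.986. Whole animals were extracted, so fewer cells of a type and less RNA per cell cannot be told apart. Markers of the intestine, epidermis, muscle, neurons, sperm and oocytes all had probe sets above the floor. Among them *unc-89* of muscle and *msp-32* of sperm had a probe set at the floor on every array.

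The compounds fell apart by which of the 6 genes were high. *gst-4*, *gst-12* and *gst-30* were highest with LK32 and LK34, *gst-5* and *gst-7* with LK56, and *gst-10* with LK34, LK35 and LK38. A difference was called when limma gave it an adjusted p below 0.05 and it reached 2-fold. Called higher than DMSO were 5 of the 6 genes with LK32, where 0.696% of all 22548 probe sets were called higher, and 5 with LK34, where 1.49% were. With LK35 it was 1 gene, *gst-10* (0.993% of all probe sets), with LK38 3 genes, *gst-5*, *gst-7* and *gst-10* (1.57%), and with LK56 4 genes, *gst-4*, *gst-5*, *gst-7* and *gst-10* (0.514%). limma called 0 of the 6 lower with any compound, and 0 were lower at an unadjusted p under 0.05. Of all probe sets, 0%, 0.812%, 1.15%, 0.75% and 0.0133% were called lower with LK32, LK34, LK35, LK38 and LK56. At an unadjusted p under 0.05 and without the fold limit, 7.34%, 7.39%, 6.3%, 7.27% and 10.5% of all probe sets were higher and 1.17%, 4.77%, 6.07%, 4.91% and 0.794% lower, in the same order. Nothing is read from these shares, since the same changes led to the choice of the genes. Arrays of compound and DMSO did not overlap for 6 genes with LK32 as with LK34, and for 2, 3 and 4 genes with LK35, LK38 and LK56, beside 10.4%, 16.6%, 15.3%, 15.5% and 15.4% of all probe sets. The LK56 count fell to 2 when LK56 A, LK56 B, DMSO A or DMSO B was left out. In each of these cases *gst-4* (1.88 to 2.52 on the log2 scale) and *gst-10* (1.96 to 2.42) were no longer called. With LK56, *gst-4* also lost its call under quantile normalization and *gst-10* under an offset of 16.

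**Figure D1:**
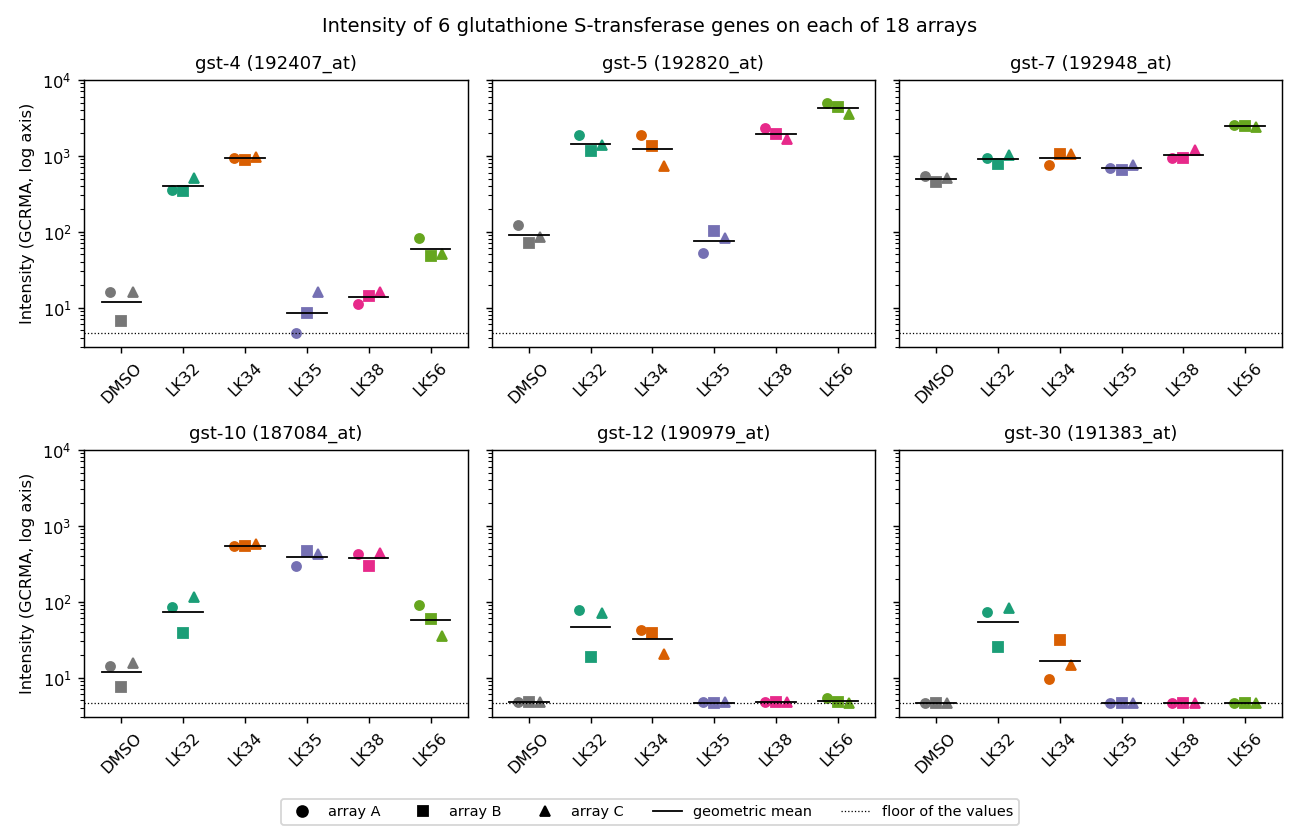
Intensity of the 6 genes on each of the 18 arrays (logarithmic vertical axis), by treatment group, with a symbol for each replicate letter, a bar for the geometric mean of 3 arrays and a dotted line at the floor of 4.61. The LK32 and LK34 arrays stand above the rest for *gst-4*, *gst-12* and *gst-30*, those of LK56 for *gst-5* and *gst-7*, and those of LK34, LK35 and LK38 for *gst-10*.

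*gst-4* (192407_at; locus K08F4.7, chromosome IV) ranged from values near background to a group mean of 928. Its intensity was 352, 340.4 and 508 on the LK32 arrays A, B and C, and 942, 869.8 and 971 on those of LK34. On the LK56 arrays it was 83.5, 48.0 and 51.5. The remaining groups were dim, with 15.97, 6.56 and 16.1 for DMSO, 4.61, 8.46 and 16.1 for LK35, and 11.1, 14.1 and 16.1 for LK38. LK34, LK32 and LK56 each formed a separate range in that order, and DMSO, LK35 and LK38 overlapped. Array C of these dim groups carried an identical value, and LK35 A lay at the floor. Group means were 12.9 ± 5.47, 400.3 ± 93.6, 928 ± 52.1, 9.73 ± 5.86, 13.8 ± 2.53 and 60.97 ± 19.6, taking DMSO first and then LK32 to LK56 (± SD, n = 3 arrays per group). On the log2 scale the differences from DMSO were 5.05, 6.28, -0.48, 0.19 and 2.31 in the order LK32, LK34, LK35, LK38 and LK56 (SE 0.43). As ratios of geometric means, *gst-4* was 33.0-fold with LK32, 77.8-fold with LK34 and 4.96-fold with LK56, set against DMSO intensities that are themselves close to background.

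*gst-12* (190979_at; locus F37B1.2, chromosome II) was measured above background with LK32 and LK34. Its intensities were 78.2, 18.4 and 71.6 with LK32 and 42.6, 38.2 and 20.2 with LK34. These ranges overlapped each other and lay above every other array. All 12 arrays of DMSO, LK35, LK38 and LK56 read between 4.61 and 5.35, and 8 of these shared the value 4.71. The means were 56.1 ± 32.8 with LK32 and 33.6 ± 11.8 with LK34 (SD, n = 3 each). Against DMSO, at 4.71 on each array, this was 3.32 and 2.77 on the log2 scale (SE 0.43), or at least 9.96- and 6.80-fold. LK32 B was the lowest of its group, and the LK32 value was 3.99 without it.

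*gst-30* (191383_at; locus ZK546.11, chromosome II) lay at the floor on all 12 arrays of DMSO, LK35, LK38 and LK56. With LK32 it read 72.1, 25.5 and 81.9, and with LK34 9.63, 31.0 and 14.8. The LK34 range reached into that of LK32, since LK34 B was brighter than LK32 B. The means were 59.8 ± 30.1 and 18.5 ± 11.2 (SD, n = 3 each), at least 11.6- and 3.56-fold above DMSO, or 3.53 and 1.83 on the log2 scale (SE 0.41). The LK34 call against DMSO ended without any 1 DMSO array (1.83 each), without LK34 B (1.37) or without LK34 C (1.91). It also ended with an offset of 16 and with a replicate block. For both *gst-12* and *gst-30* the pooled SE includes 4 groups with almost no spread and understates that of LK32 and LK34.

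*gst-5* (192820_at; locus R03D7.6, chromosome II) was raised in every compound group but LK35. It read 121, 70.1 and 84.3 with DMSO and 52.0, 103 and 82.8 with LK35, ranges that overlapped. The intermediate groups read 1887, 1169.6 and 1369 with LK32, 1893, 1345 and 739.8 with LK34, and 2284, 1917 and 1654 with LK38. With LK56 the values were 4912, 4320.3 and 3545, above every other array. The LK32, LK34 and LK38 ranges overlapped with one another. The corresponding means for DMSO and LK32 through LK56 were 91.8 ± 26.2, 1475 ± 370.2, 1326 ± 577, 79.3 ± 25.8, 1952 ± 316 and 4259 ± 686 (± SD, n = 3). From DMSO the log2 differences were 4.01, 3.79, -0.23, 4.44 and 5.56 in the order of compounds given above (SE 0.35).

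*gst-7* (192948_at; locus F11G11.2, chromosome II) was well above the floor on every array, and its greatest difference from DMSO (2.30 on the log2 scale) was smaller than that of the other 5 genes. It read 540.5, 454 and 501 with DMSO, and 691, 644 and 764 with LK35. The groups of LK32, LK34 and LK38 lay close together, at 925, 767 and 1036 with LK32, 748, 1058 and 1059 with LK34, and 943, 935 and 1181 with LK38. LK56 stood apart at 2536, 2423 and 2396. Every array of every compound was above the highest DMSO array, and LK35 overlapped with LK34 alone. Means over 3 arrays ran 498 ± 43.2, 909 ± 135, 955 ± 179, 699.5 ± 60.5, 1019.6 ± 139.7 and 2451 ± 74.3 from DMSO through LK32, LK34, LK35 and LK38 to LK56 (± SD). In log2 terms these were 0.86, 0.92, 0.49, 1.03 and 2.30 above DMSO (SE 0.15). The LK38 call sat at the 2-fold limit and ended without DMSO B (0.96) or LK38 C (0.92). It also ended with quantile normalization, with median centring and with array weights. Without the fold limit *gst-7* was also called with LK32 and LK34. The share of all probe sets called without that limit is not given here, so nothing is read from these calls.

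*gst-10* (187084_at; locus Y45G12C.2, chromosome V) was higher with all 5 compounds than on any DMSO array, in an order unlike that of the other genes. The DMSO arrays read 14.1, 7.41 and 15.4. The highest were LK34 with 537, 532 and 569, LK35 with 290.3, 459 and 425, and LK38 with 429.7, 294 and 433. LK32 with 85.9, 38.7 and 116 and LK56 with 90.9, 58.1 and 35.5 lay between. LK35 and LK38 overlapped, as did LK32 and LK56, and LK34 lay above all. Averaged per group, DMSO first, it measured 12.3 ± 4.28, 80.2 ± 39.0, 546 ± 20.2, 391 ± 89.2, 385 ± 79.6 and 61.5 ± 27.9 (± SD, n = 3). Relative to DMSO the log2 differences were 2.64, 5.54, 5.03, 5.02 and 2.29 (SE 0.43), set against DMSO arrays as close to background as those of *gst-4*. The LK32 call ended without DMSO B (2.31). LK34, LK35 and LK38 were also the groups in which sperm transcripts were low. For the major sperm protein genes, 23, 23 and 22 of 24 probe sets were called lower with these compounds, beside 0.812%, 1.15% and 0.75% of all probe sets, and their summed intensity was 10442 to 16140, 9872 to 10693 and 11704 to 17307 per array. It was 52071 to 60267 with DMSO, 47016 to 48932 with LK32 and 44004 to 80646 with LK56. Summed oocyte markers lay above every DMSO array with LK34, LK35 and LK38. With LK32 and LK56 they did not. The summed intensity of 7 probe sets of 5 genes, none at the floor on all arrays, was 25128 to 34510 with LK34, 27485 to 35565 with LK35 and 21467 to 33918 with LK38. It was 19019 to 20200 with DMSO, 16609 to 18818 with LK32 and 15223 to 21709 with LK56. limma called 0 of the 7 with any compound. Higher at an unadjusted p under 0.05 were 4, 5 and 3 with LK34, LK35 and LK38, beside 7.39%, 6.3% and 7.27% of all probe sets. Muscle markers, 10 probe sets of 4 genes, summed to 10044 to 15863 with LK34 and 8356 to 15353 with LK35, below the 18012 to 21548 with DMSO, and to 10339 to 23027 with LK38. The part of these sperm, oocyte and muscle values in those of *gst-10* was not tested.

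A further probe set, 187085_s_at, is annotated to both *gst-10* and *F56A4.3*, a gene also on chromosome V, and its values cannot be assigned to one of them. It read 13.4, 7.35 and 13.4 with DMSO, 106, 70.5 and 226 with LK32, 500.3, 488 and 395 with LK34, and 239, 364 and 317 with LK35. With LK38 it was at 342, 257 and 309.5 and with LK56 at 88.7, 99.1 and 79.8. The order of the groups was that of 187084_at, and the correlation between both was 0.97 over the 18 arrays. LK32 was closer to LK35 and LK38 here, with log2 differences of -1.35 and -1.34 (adjusted p = 0.056 and 0.058), and those pairs were not called.

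**Figure D2:**
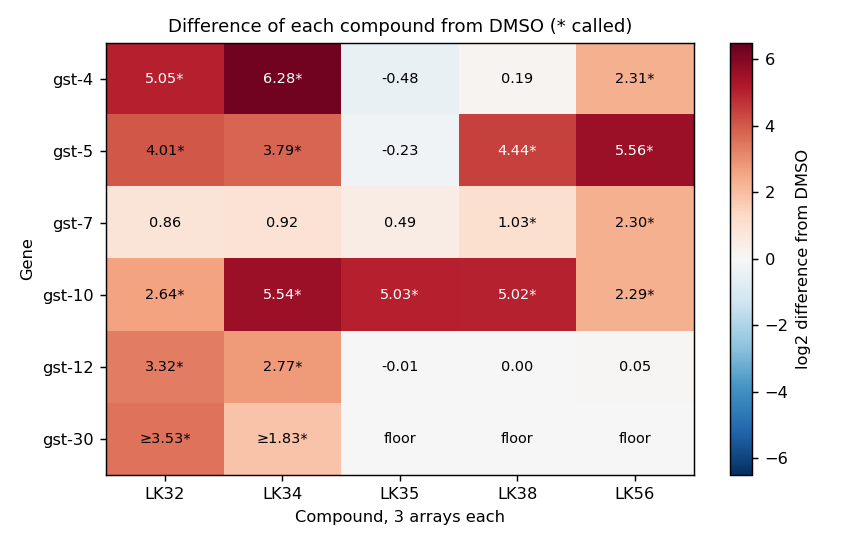
Difference of each compound from DMSO on the log2 scale for the 6 genes (rows) and 5 compounds (columns), from means of 3 arrays. An asterisk marks a called difference (a description here, as the genes were chosen on these values), ≥ a lower bound against DMSO arrays at the floor, and "floor" a pair of groups both at the floor. LK32 and LK34 show values of 1.83 or more in every gene but *gst-7*, and LK35 shows 5.03 in *gst-10* beside 0.49 or less elsewhere.

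The 10 pairs of compounds, all given at the same dose and time, were then compared directly. These contrasts hold no DMSO array, but they use the compound arrays on which the genes were chosen, so a pair in which one compound raised a gene and the other left it near DMSO is not independent of that choice. p values were adjusted over all probe sets and all 10 pairs together. Of 60 differences, 37 were called, and in 1 of these the arrays of both compounds overlapped. The called pairs of *gst-12*, and those of *gst-30* other than LK32 against LK34, set a raised group against one at or near the floor. Called pairs of *gst-4* with LK35 or LK38, and of *gst-5* with LK35, set one against a level near DMSO. For all of these the p values are no independent test. The share of all probe sets called in each pair is given below. Fitted to the 6 arrays of each pair alone, 12 of the 37 passed. This fit was chosen after seeing the data and leaves 4 residual degrees of freedom. The share of all probe sets that pass in such fits is not given here. Leaving out each array of the pair in turn kept 31 of the 37.

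The pair of LK32 and LK34 differed in 2 genes, while 3.67% of all probe sets were called in either direction. *gst-10* was 7.50-fold higher with LK34 (-2.91 on the log2 scale for LK32 minus LK34, 95% interval -3.84 to -1.98, adjusted p = 0.0016). *gst-30* was 3.24-fold higher with LK32 (1.70, 0.80 to 2.60, adjusted p = 0.037), the one called pair whose arrays overlapped. This call ended without LK32 A (1.48), LK32 C (1.39), LK34 A (1.31) or LK34 C (1.62). *gst-4* was 2.35-fold higher with LK34 and its 3 arrays lay above those of LK32, but the difference was not called (-1.24, -2.18 to -0.29, adjusted p = 0.18). It was called with median centring, with an offset of 16 and with array weights. For *gst-5*, *gst-7* and *gst-12* the differences were 0.23 (-0.53 to 0.98), -0.06 (-0.38 to 0.26) and 0.55 (-0.39 to 1.49), and the arrays overlapped.

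LK35 and LK38 differed in 1 gene, beside 0.324% of all probe sets. *gst-5* was 25.4-fold higher with LK38 (-4.66 for LK35 minus LK38, 95% interval -5.42 to -3.91, adjusted p = 9.8e-06). The difference in *gst-10* was 0.02 (-0.91 to 0.95), that in *gst-7* was -0.54 (-0.86 to -0.22, adjusted p = 0.066) with separate arrays, and that in *gst-4* was -0.67 (-1.61 to 0.28) near background. *gst-12* and *gst-30* were at or close to the floor with both compounds, so the pair gives no difference there.

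LK34 shared its high *gst-10* with LK35 and LK38 and differed from both in the *gst-4* group. It was called higher than LK35 in *gst-4* (6.76, 5.81 to 7.70, adjusted p = 2.8e-06), *gst-5* (4.02, 3.26 to 4.77, adjusted p = 3.2e-05), *gst-12* (at least 2.78, adjusted p = 0.0024) and *gst-30* (at least 1.83, adjusted p = 0.024), beside 0.222% of all probe sets. Against LK38, where 0.395% were called, the same genes without *gst-5* were higher, *gst-4* by 6.09 (5.15 to 7.03, adjusted p = 6.8e-06). *gst-10* differed by 0.51 (-0.42 to 1.44) from LK35 and by 0.53 (-0.40 to 1.45) from LK38, although every LK34 array was the higher. The *gst-30* calls of LK34 against LK35, LK38 and LK56 ended without LK34 B (1.37), LK34 C (1.91) or any 1 array of the other compound (1.83).

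LK56 was set apart by *gst-5* and *gst-7*. *gst-7* was called higher with LK56 than with LK32 (-1.44, -1.76 to -1.12), LK34 (-1.38, -1.70 to -1.06), LK35 (-1.81, -2.13 to -1.49) and LK38 (-1.27, -1.59 to -0.95), with the sign given as the other compound minus LK56 and adjusted p from 2.0e-05 to 2.9e-04. *gst-5* was called higher with LK56 than with LK32 (-1.55, -2.30 to -0.79, adjusted p = 0.024), LK34 (-1.77, -2.53 to -1.02, adjusted p = 0.011) and LK35 (-5.79, -6.55 to -5.03). Against LK38 the difference was -1.13 (-1.88 to -0.37, adjusted p = 0.11) and was not called, with no overlap of the arrays. The call against LK32 ended without LK32 B (-1.39), LK32 C (-1.51), LK56 A (-1.44) or LK56 B (-1.53).

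*gst-4* with LK56 lay between the high and the dim groups. It was called lower than with LK32 (2.74, 1.79 to 3.68, adjusted p = 0.0028) and LK34 (3.97, 3.03 to 4.91, adjusted p = 1.9e-04) and higher than with LK35 (-2.79) and LK38 (-2.12, -3.06 to -1.18, adjusted p = 0.014). The last call ended without LK38 A (-1.97) or LK56 A (-1.87). *gst-10* separated the compounds into LK34, LK35 and LK38 on one side and LK32 and LK56 on the other. All 6 pairs across these sides were called (2.38 to 3.25 in size, adjusted p from 7.3e-04 to 0.0062), and the 4 within a side were not. The background in the pairs with LK56 was 0.355% of all probe sets called against LK32, 3.75% against LK34, 4.46% against LK35 and 3.51% against LK38, and 5, 6, 4 and 3 of the 6 genes were called. Against LK32, 5 genes were called with LK35 (4.53% of all probe sets) and 4 with LK38 (3.52%).

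**Figure D3:**
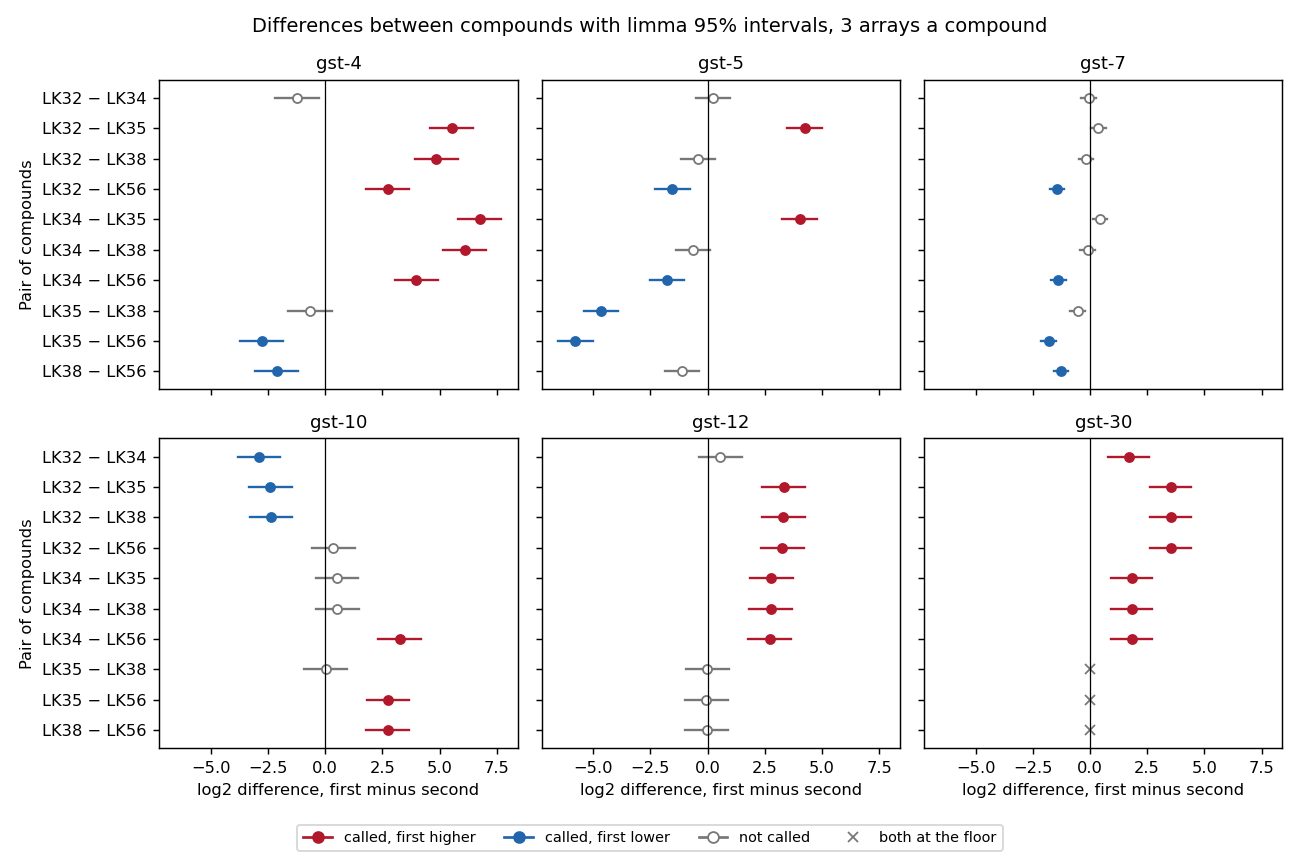
Differences between compounds in the 6 genes, as log2 of the first minus the second compound of each pair, with limma 95% intervals (n = 3 arrays a compound). Filled points are called, open points are not, and crosses mark pairs with all arrays at the floor. *gst-30* values against LK35, LK38 or LK56 are lower bounds, and *gst-10* shows its 6 called pairs between LK34, LK35 or LK38 and LK32 or LK56.

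Among the 6 genes, the closest patterns over the 18 arrays were those of *gst-12* and *gst-30* (Pearson r = 0.94), *gst-4* and *gst-12* (0.87), *gst-5* and *gst-7* (0.80), and *gst-4* and *gst-30* (0.78). *gst-10* correlated with the other 5 at 0.09 to 0.22. The points share treatment groups, and *gst-12* and *gst-30* share 12 arrays at or near the floor, so these values only describe the patterns.

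Of 8593 brighter probe sets of 1 other gene, the most alike to *gst-4* were *fmo-2* (r = 0.93), which encodes a flavin-containing monooxygenase, *nit-1* (0.89), a nitrilase, and *T07E3.4* (0.86). *fmo-2* and *T07E3.4* were also among the 3 closest to *gst-12* (0.89 and 0.81), with *F14F9.4* (0.83). *gst-30* was closest to *F32D8.12* (0.88), *T05E12.6* (0.84) and *acd-1* (0.82), a channel subunit of the degenerin family. *T05E12.6* and *acd-1* had group means of 93.9 and 92.8 with LK32 and at most 6.90 elsewhere, so their likeness rests on LK32 and not on LK34. The closest to *gst-5* were *C39E9.8* (0.92), *nadk-1* (0.92), an NAD kinase, and *cdr-4* (0.91) of the cadmium-responsive family. *cdr-4* had means of 40.9 with DMSO and LK35 alike, and 179.6, 615, 1028 and 2689.6 with LK32, LK34, LK38 and LK56. *gst-7* was closest to *gpx-1* (0.89), a glutathione peroxidase, *gst-6* (0.87) and *ugt-5* (0.87), a UDP-glucuronosyltransferase. *gst-10* was closest to *C23H5.8* (0.98), *Y17D7B.7* (0.96) and *ldh-1* (0.96), the lactate dehydrogenase, with means of 175 in DMSO and 1145, 972 and 890.5 in LK34, LK35 and LK38.

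Several of the 6 genes lie beside other glutathione S-transferase genes in the WBcel235 assembly, and these neighbours did not all follow them. *gst-2* and *gst-3*, next to *gst-4*, were at the floor on all 18 arrays. *gst-6*, next to *gst-7*, rose from 75.5 ± 31.3 with DMSO to 509 ± 109.6 with LK34, 548 ± 312 with LK38 and 2121 ± 157 with LK56 (SD, n = 3 each). These log2 changes were 2.84, 2.77 and 4.92 with an SE of 0.47 (adjusted p = 0.0042, 0.0047 and 2.1e-04). On the other side of *gst-7*, *gst-9* was at the floor on every array and *gst-8* on 17 of them. *gst-12* lies in a run of *gst* genes on chromosome II. There *gst-24* rose with LK34 from 15.5 ± 2.20 to 202 ± 129 (3.52, SE 0.32, adjusted p = 4.3e-05) and measured 17.0 ± 1.22 with LK32. *gst-19* was at the floor with DMSO and LK32 and read 157 to 170.1 with LK34, at least 35.7-fold higher. *gst-16*, adjacent to *gst-12*, read 4.67 to 37.2 with LK32 and 8.43 to 28.6 with LK34 against the floor with DMSO (at least 1.99 and 1.96, SE 0.66, adjusted p = 0.28 and 0.16). *gst-14*, *gst-15*, *gst-17*, *gst-18* and *gst-20* were not called with any compound. *gst-5*, *gst-10* and *gst-30* have no other gene with a *gst* name beside them.

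**Figure D4:**
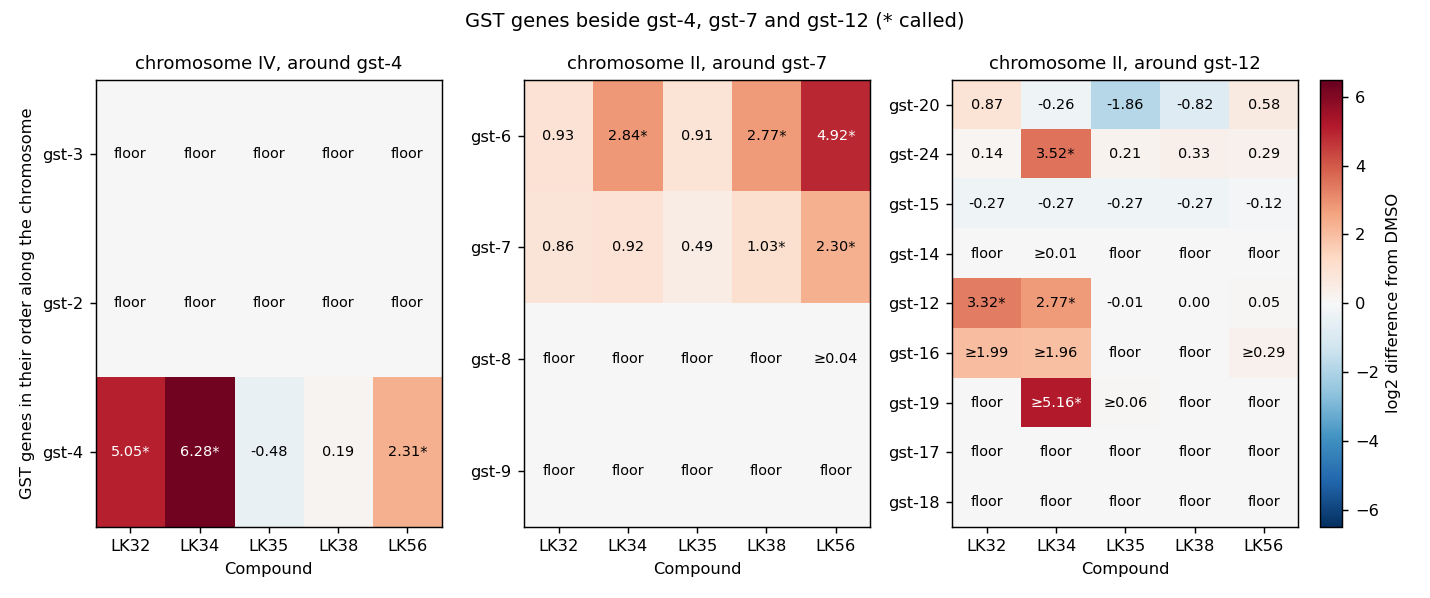
Difference from DMSO on the log2 scale (from 3 arrays a group) for glutathione S-transferase genes beside *gst-4*, *gst-7* and *gst-12*, in their order along the chromosome, with asterisks for called differences, ≥ for lower bounds and "floor" where both groups were at the floor. *gst-12* is high with LK32 and LK34, whereas *gst-24* and *gst-19* are called with LK34 and read 0.14 and the floor with LK32.

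Genes that set SKN-1 activity were read by 14 probe sets of 8 genes, of which 3 lay at the floor on 17 or 18 arrays. limma called 0 of the 14 with any compound. With 0.514% to 1.57% of all probe sets called higher, a count of 0 in so short a list lies at the background. At an unadjusted p under 0.05, 5 of the 14 were higher with LK32 (7.34% of all probe sets) and 2 with LK56 (10.5%). LK34 had 1 higher (7.39%) and 1 lower (4.77%), LK35 1 higher (6.3%) and 1 lower (6.07%), and LK38 1 lower (4.91%). *skn-1* itself has 3 probe sets, of which 174799_at read 77.3 ± 48.4 with DMSO and between 84.0 and 115 as group means of the compounds, 194169_s_at 291 ± 108 with DMSO and 147 to 540 with the compounds, and 188421_at was at the floor on 17 arrays. *wdr-23* (192424_s_at), whose product restrains SKN-1, read 698 ± 59.3 with DMSO and 1046 ± 66.3 with LK34 (0.58, SE 0.13, adjusted p = 0.023), a change under 2-fold that was not called. Its values were 925 ± 162 with LK32, 837 ± 11.5 with LK35, 824 ± 78.6 with LK38 and 999 ± 152 with LK56. These log2 changes were 0.40, 0.27, 0.24 and 0.51, also not called. The list pools *wdr-23* with *pmk-1*, whose product promotes the entry of SKN-1 into nuclei, so its median gives no direction of SKN-1 activity. The median log2 change of the list was 0.40, 0.17, 0, 0.22 and 0.49 from LK32 to LK56. That of all probe sets was 0, as 46.3% to 49.4% of each array lies at the floor, and that of the brighter probe sets was 0.12, 0.06, 0.04, 0.05 and 0.23.

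Other targets of SKN-1 moved in part with *gst-4*. Of 8 probe sets of 7 genes, limma called 2 higher with LK32 and 1 each with LK34 and LK56, beside 0.696%, 1.49% and 0.514% of all probe sets. It called 0 with LK35 and LK38, where 1 each was lower at an unadjusted p under 0.05, beside 6.07% and 4.91% of all probe sets. *nit-1* (188607_at) read 11.1 ± 2.44 with DMSO, 79.4 ± 38.9 with LK32, 504 ± 102 with LK34 and 115 ± 49.4 with LK56 (log2 change 2.72, 5.50 and 3.30 with an SE of 0.42, adjusted p = 0.0075, 1.1e-05 and 0.0022), and 12.2 ± 4.58 and 11.1 ± 2.42 with LK35 and LK38. *sdz-8* (190254_at) rose with LK32 from 6.38 ± 0.0065 to 49.3 ± 30.8 (2.70, SE 0.37, adjusted p = 0.0039, and 3.31 without LK32 B) and read 11.4 ± 1.47 with LK34. Its pooled SE includes groups with almost no spread and understates that of LK32, which ran from 17.8 to 79.3. *gcs-1*, which encodes the rate-limiting enzyme of glutathione synthesis, was not called. Its probe set 173813_at read 394 ± 73.5 with DMSO and 506 to 611 as group means of the compounds, and 191226_s_at 724 ± 11.6 and 615 to 880.

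Enzymes that make, recycle or work beside glutathione had 13 probe sets of 10 genes. Of these, which include glutathione synthetase, glutathione reductase, thioredoxin reductases, peroxiredoxins and glutaredoxins, limma called 0 with each compound, and their median log2 change lay between -0.09 and 0.34. The share of all probe sets called higher was 0.514% to 1.57%, so a count of 0 among 13 lies at the background. At an unadjusted p under 0.05, 6 were higher with LK56 (10.5% of all probe sets), 2 with LK38 (7.27%), 1 with LK34 (7.39%), 1 with LK35 (6.3%) and 0 with LK32 (7.34%). Lower were 1 with LK34 (4.77%), 1 with LK35 (6.07%) and 1 with LK38 (4.91%). The 39 other glutathione S-transferase genes had 40 probe sets, of which 10 were at the floor on all arrays. Those called higher were *gst-31* and *gst-39* with LK32, and *gst-19*, *gst-24*, *gst-39* and *gst-6* with LK34. With LK38 it was *gst-6*, and with LK56 *gst-39*, *gst-33* and *gst-6*. The share of all probe sets called higher was 0.696%, 1.49%, 1.57% and 0.514% with LK32, LK34, LK38 and LK56, so 1 among 40 lies near it. *gst-39* read 52.7 ± 5.14 with DMSO, 289 ± 89.9 with LK32, 197 ± 57.4 with LK34 and 552 ± 155 with LK56 (adjusted p = 0.0047, 0.0086 and 4.5e-04). *gst-31* was at the floor with DMSO and read 21.6 to 110.4 with LK32 (at least 3.61, adjusted p = 0.0010, and 4.303 without LK32 B). The pooled SE of *gst-31* likewise includes groups at the floor and understates the spread of LK32. limma called 0 of the other genes higher with LK35, beside 0.993% of all probe sets, so a count of 0 among 40 lies near the background. At an unadjusted p under 0.05, 3 of their probe sets were higher, beside 6.3% of all probe sets. Called lower were *gstk-2* of the kappa class with LK34 (-1.15, adjusted p = 0.0047) and LK35 (-1.04, adjusted p = 0.0086) and *gsto-3* of the omega class with LK35 (-1.72, adjusted p = 0.019). Of all probe sets, 0.812% and 1.15% were called lower with LK34 and LK35. With LK35 the *gstk-2* call ended without LK35 A (-0.82) and that of *gsto-3* without DMSO A (-1.65), DMSO B (-1.68), LK35 A or LK35 C (-1.63 each). Of the 45 genes of this family with a probe set of their own, *gst-10* was the one called higher with LK35 at 2-fold. This call is a description, since *gst-10* was taken up with its changes against DMSO known. The probe set annotated to both *gst-10* and *F56A4.3* was also called higher with LK35 (4.79).

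**Figure D5:**
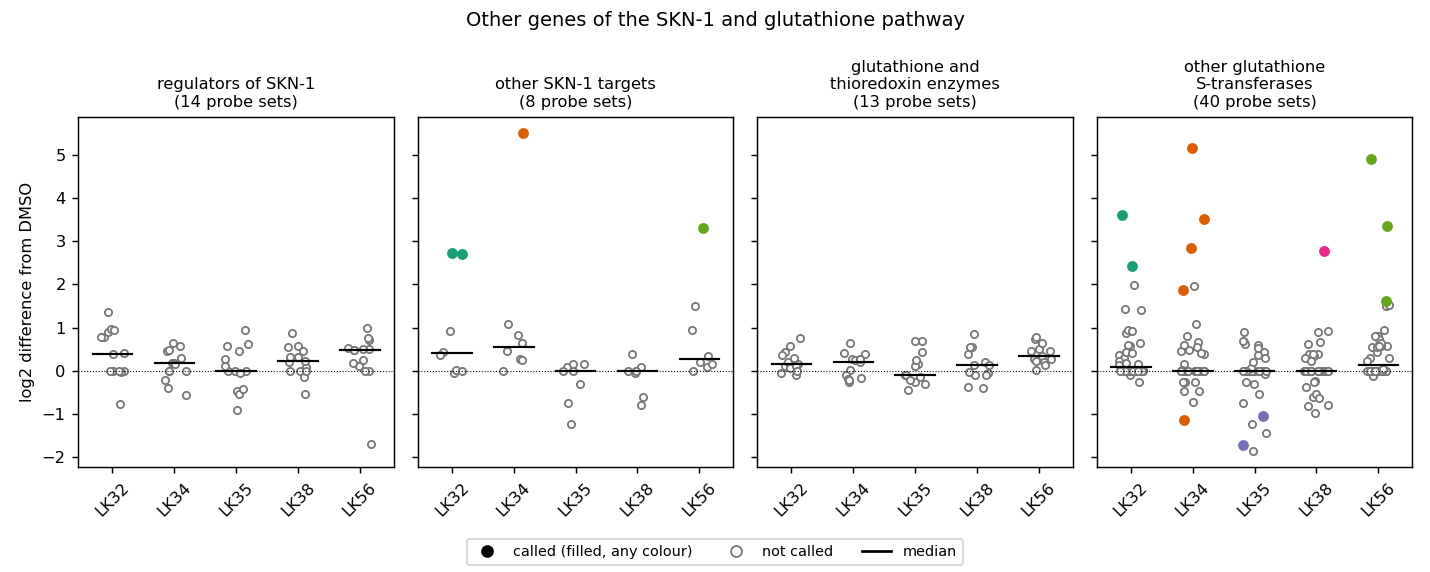
Difference from DMSO on the log2 scale of each probe set in 4 lists, by compound, with filled points for called differences, open points for the rest and a bar at the median of the list. The regulators of SKN-1 and the glutathione and thioredoxin enzymes hold no filled point, and *nit-1* with LK34, at 5.50, is the highest of the other SKN-1 targets.

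Intestinal markers, from a tissue in which SKN-1 acts, also differed between the groups. The summed intensity of 9 probe sets of 8 genes was 38277 to 43961 per array with DMSO, 45010 to 49909 with LK32 and 43933 to 47372 with LK56. It was 26771 to 36830 with LK34, 22661 to 29848 with LK35 and 24120 to 36083 with LK38, below every DMSO array. With these 3 compounds 2, 3 and 2 of the 9 were called lower, beside 0.812%, 1.15% and 0.75% of all probe sets. With LK32 and with LK38 1 was called higher, beside 0.696% and 1.57%. At an unadjusted p under 0.05, 5, 1, 0, 2 and 4 of the 9 were higher with LK32, LK34, LK35, LK38 and LK56. The shares of all probe sets were 7.34%, 7.39%, 6.3%, 7.27% and 10.5%. Lower were 0, 4, 5, 4 and 0 of the 9 in the same order, beside 1.17%, 4.77%, 6.07%, 4.91% and 0.794%. None of the 9 lay at the floor on all arrays. The sum lay above every DMSO array with LK32, and the LK56 range overlapped with that of DMSO. The part of these markers in the values of the 6 genes was not tested.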

How the data were processed

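RNA of whole N2 animals was labelled with biotin and hybridized to 18 Affymetrix arrays, 1 colour each. The table holds the intensities that the authors deposited, not logged, made with GCRMA, which corrects background by probe sequence and scales the arrays to each other. A shift shared by every transcript is therefore removed. The version of GCRMA is not given in the sources used here. The labels number the replicates without saying how they were prepared, so p values measure the spread between these arrays. All columns were used. Of 22625 probe sets, 77 control probe sets were dropped, which left 22548 for the tests. The annotation gives 1 gene for 20766 of them, several for 887 and none for 895.

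limma 3.58.1 (R 4.3.3) was fitted to log2 of the intensity, no offset added, with a mean for each group over all 18 arrays. The fit had 12 residual degrees of freedom and 0.332 from the prior. The spread is pooled, and the number of arrays limits the precision. Compounds were compared with DMSO, with Benjamini-Hochberg adjustment within each comparison, and the 10 pairs of compounds with adjustment over all pairs. A call needed both an adjusted p below 0.05 and a 2-fold change. The members and lists were chosen with earlier results of these data known. All 6 genes were named, as were *skn-1*, *wdr-23* and *gcs-1*, up to 4 called genes per list and direction (largest first), and for each of the 6 genes the 3 most alike probe sets among those whose log2 intensity exceeded 5 on 3 or more arrays. Neighbouring *gst* genes were named for their position. A value within 0.1% of the lowest was counted as at the floor. Alternatives were quantile normalization, median centring, an offset of 16, brighter probe sets, array weights, a replicate block, adjustment within pairs, no fold limit and leaving out arrays. The fit was tested on simulated data. Figures used matplotlib 3.10.9 in Python 3.11.15.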

Additional observations from a re-analysis of the deposited data

How the results depend on the processing

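The 37 called differences between compounds were followed through the alternatives, of which the fit to brighter probe sets gives no value for the 7 differences of *gst-30*. None turned its direction where it was fitted. In these alternatives, other than the 2 chosen after seeing the data and with 1 array left out at a time among them, 31 stayed past the threshold wherever they were fitted. The others were *gst-30* with LK32 against LK34 and with LK34 against LK35, LK38 and LK56, *gst-5* with LK32 against LK56, and *gst-4* with LK38 against LK56. With an offset of 16, *gst-30* with LK34 was 0.69 above LK35, LK38 and LK56 on the log2 scale (adjusted p = 0.25). The cause was not tested.

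The count of genes called between LK32 and LK34 moved from 2 to 1 among brighter probe sets alone, where *gst-30* is not among those tested, to 1 with a replicate block, and to 1 when LK38 C, LK35 A and LK32 C were left out together. It was 3 with median centring, with an offset of 16 and with array weights, each of which added *gst-4*. It ranged from 1 to 3 when 1 array was left out, with *gst-12* added without LK32 B. The LK56 count against DMSO ranged from 2 to 4. Fitted to the 6 arrays of 2 groups alone, which leaves 4 residual degrees of freedom, the counts against DMSO were 0 with LK32 and 2 with LK56. Between compounds they were 0 for LK32 and LK34, 2 for LK32 and LK35, 1 for LK32 and LK38, 0 for LK32 and LK56, 0 for LK34 and LK35, 1 for LK34 and LK38, 0 for LK35 and LK38, and 2 for LK35 and LK56. The remaining comparisons are not listed. The share of all probe sets called in these fits is not given here, so nothing about the 6 genes is read from these counts. Both omissions of this kind, of groups and of the 3 arrays that correlate least with their own, were chosen after seeing the data.

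The replicate letters showed no consistent pairing of the arrays. Deviations from the group means correlated at a median r of -0.0050 between arrays of the same letter (45 pairs, -0.46 to 0.79) and -0.0085 between others. With so wide a range, these medians cannot exclude a batch shared by some of the groups. With the replicate block 1 gene was called between LK32 and LK34 and 4 with LK34 against DMSO.

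Intensities near the floor limit *gst-12*, *gst-30*, the dim groups of *gst-4* and the DMSO arrays of *gst-10*, where folds rest on values not above background.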
